A study of Mus musculus with 16 samples.

Results

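The rod and cone phototransduction genes of the mouse retina are described here 3 days after optic nerve crush, with and without an inhibitor of DLK (dual leucine zipper kinase), an axon injury kinase. The 35 genes were taken by name from a list of known photoreceptor genes and matched to the Entrez identifiers of the count files, which hold 36528 identifiers in all. They comprise 12 genes used mainly by rods, 13 used by both kinds of photoreceptor and 10 listed as cone genes. Among the cone genes Gnb3 is also used by ON bipolar cells, so its level is not that of cones alone. Whole retinas were sequenced in 16 libraries. Crushed retinas (n = 5) and uncrushed retinas (n = 5) came from mice given the DLK inhibitor GNE-3511 (DLKi) at 75 mg/kg, 60 and 68 hours after the injury. Crushed retinas (n = 3) and uncrushed retinas (n = 3) came from mice given the vehicle, MCT, alone. The labels state 5 mice per drug and tie no retina to an animal, so a p-value here reflects only how these retinas scatter. The sources used here give no strain, genotype, age or sex. Optic nerve crush injures the axons of retinal ganglion cells and leaves photoreceptors, which send no axon into the nerve, without direct injury.

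Rods and cones turn light into a fall in cyclic GMP with paired sets of proteins. An opsin activates the G protein transducin, transducin activates phosphodiesterase 6, and the fall in cyclic GMP closes a cation channel in the outer segment. Kinase, arrestin and calcium-sensing proteins shut the response off, and guanylate cyclase restores the cyclic GMP. Rods serve dim light and outnumber cones by far in the mouse.

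The level of each gene is given as the authors' nRPKM, reads per kilobase per M reads, scaled by a size factor per library, so that genes can be compared per length. All 35 genes were detected in all 16 libraries, the lowest count of any member being 298, and all 35 passed the filter on low counts. Library totals ranged from 22.4 to 44.7 M counts, and the 35 genes took 5.52% to 6.52% of them. The shallowest libraries were uncrushed vehicle replicate 1 (22.4 M) and crushed vehicle replicate 3 (25.4 M). Replicate 1 of the uncrushed vehicle group also had the highest share of mitochondrial counts, 4.54%, where the lowest share in any library was 2.02%.

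The rod set was far above the cone set in nRPKM. Over all 16 libraries Gnat1, the rod transducin α subunit, averaged 5343 ± 397 nRPKM (SD) and was the highest of the 35. Sag, the rod arrestin, followed at 2329 ± 228 nRPKM. The rod transducin subunits Gnb1 (β) and Gngt1 (γ) averaged 1359 and 273 nRPKM, of which Gnb1 is also used in other cells. The rod phosphodiesterase genes Pde6g (inhibitory γ subunit), Pde6b and Pde6a (catalytic subunits) averaged 1157, 683 and 359 nRPKM. The rod channel genes Cnga1 and Cngb1 averaged 225 and 139 nRPKM, and the exchanger gene Slc24a1 averaged 224 nRPKM. Nrl and Nr2e3, which encode transcription factors of rod identity, averaged 600 and 198 nRPKM. The median of the 12 rod genes was 479 nRPKM.

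The 10 cone genes had a median of 61.1 nRPKM. Gnb3, the cone transducin β subunit, which ON bipolar cells also use, was the highest of them at 180 ± 32.4 nRPKM. The opsin genes Opn1mw (medium wavelength) and Opn1sw (short wavelength) averaged 122 and 108 nRPKM. Arr3, the cone arrestin, averaged 88.0 nRPKM. The cone phosphodiesterase genes Pde6h (inhibitory subunit) and Pde6c (catalytic subunit) averaged 63.5 and 23.9 nRPKM. The cone transducin genes Gnat2 (α) and Gngt2 (γ) averaged 58.7 and 20.3 nRPKM. The cone channel genes Cngb3 and Cnga3 were lowest, at 3.77 and 3.71 nRPKM, a difference within their spread over libraries (SD 0.390 and 0.480).

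The 13 genes of both photoreceptor kinds had a median of 299.9 nRPKM. Prph2 and Rom1, the tetraspanins of the disc rim, averaged 1926 and 1512 nRPKM. Pdc, which encodes phosducin, a protein that binds transducin βγ, averaged 1195 nRPKM. The calcium sensor genes Rcvrn, Guca1a and Guca1b averaged 746, 698 and 469 nRPKM. Gucy2e and Gucy2f, the guanylate cyclase genes, averaged 85.1 and 29.5 nRPKM. The opsin kinase gene Grk1 averaged 279 nRPKM and the transcription factor gene Crx 299.9 nRPKM. The retinoid genes Rdh12 (a retinol dehydrogenase) and Abca4 (a retinoid transporter) averaged 196 and 143 nRPKM, and the axoneme gene Rp1 121 nRPKM.

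**Figure D1:**
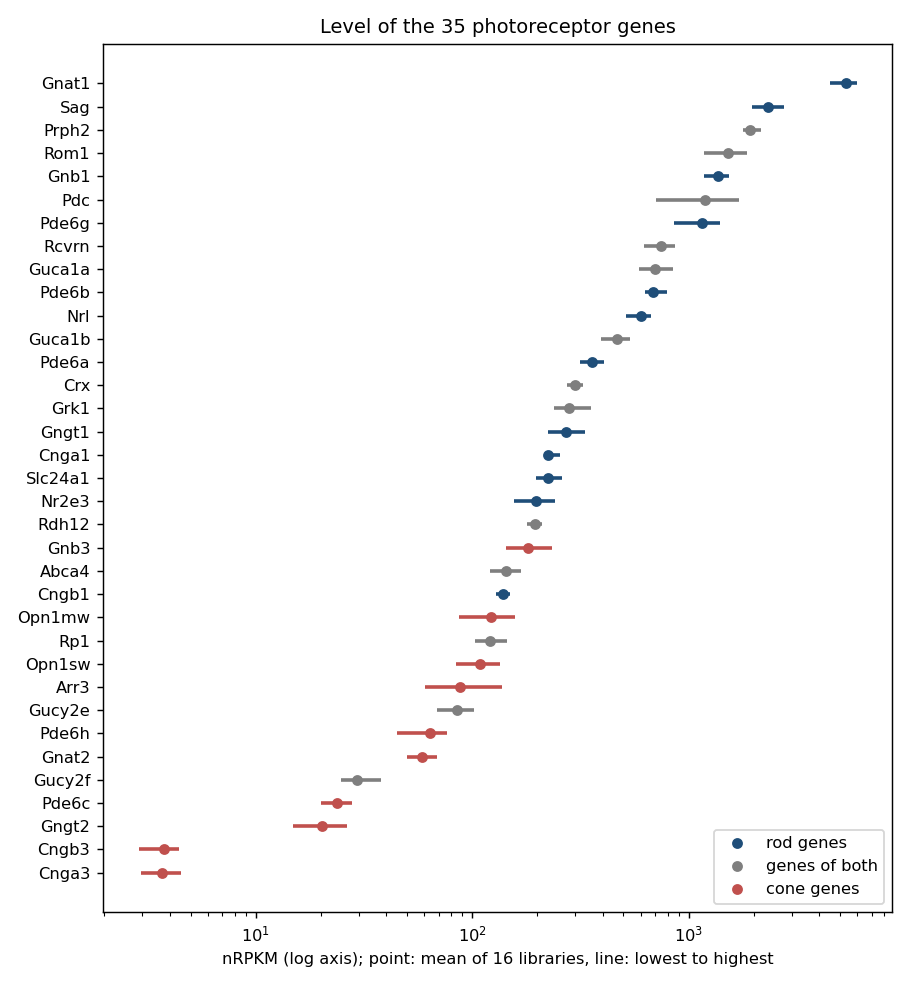
Level of the 35 genes in nRPKM on a log axis. Points are means of the 16 libraries and lines run from the lowest to the highest library, with rod genes in blue, genes of both in grey and cone genes in red. Gnat1 is highest at 5343 nRPKM. Gnb3, which ON bipolar cells also use, is the highest of the listed cone genes at 180 nRPKM.

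Spread across libraries was small for most members and differed among them. The coefficient of variation over the 16 libraries had a median of 7.88% in the rod set, 9.42% in the genes of both and 13.5% in the cone set. Cnga1 had the lowest, 4.65%. Pdc (22.0%), Arr3 (21.4%) and Gnb3 (17.9%) had the highest. The kit does not mark strand, so where genes overlap on opposite strands their reads are mixed. In the GENCODE M21 annotation of GRCm38, exons of another gene overlapped 15.5% of the exon length of Opn1sw (Calu) and 12.5% of that of Gngt2 (Abi3). The share was 1.81% for Nr2e3 and 1.73% for Pde6h, and no overlap was found for the other 31 genes.

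Most estimated changes of the phototransduction genes after crush were small, and few genes were called. The test throughout was edgeR's quasi-likelihood test with Benjamini-Hochberg adjustment over 19391 genes, with a gene called at an adjusted p of at most 0.05. In DLKi mice 1 of the 35 genes was called between crushed and uncrushed retinas, Gnb3, which was higher. The background was 5.33% of all genes tested in either direction and 3.29% called higher. In vehicle mice 2 of the 35 genes were called, Gnb3 higher and Pdc lower. The background there was 2.63% in either direction, 1.77% called higher and 0.861% called lower. At an unadjusted p of at most 0.05, 3 members passed in DLKi mice, against 14.4% of all genes, and 6 passed in vehicle mice, against 10.4%. At both thresholds the share of members passing was below the background in DLKi mice and above it in vehicle mice. These shares rest on 1 to 6 genes, and their departure from the background was not tested.

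The estimates that were not called were mostly small and below 0. In DLKi mice 27 of the 35 log2 changes were negative and 8 positive, with a median of -0.03, against a median of -0.001 over all genes tested. In vehicle mice 28 were negative and 7 positive, with a median of -0.09, against -0.003 over all genes tested. In DLKi mice the 95% interval lay within a 1.5-fold change in both directions for 34 of the 35 genes, Pdc being the exception. In vehicle mice it did so for 31, the exceptions being Pdc, Gnb3, Pde6h and Arr3. In whole tissue, fewer cells of a type and less RNA per cell cannot be told apart.

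**Figure D2:**
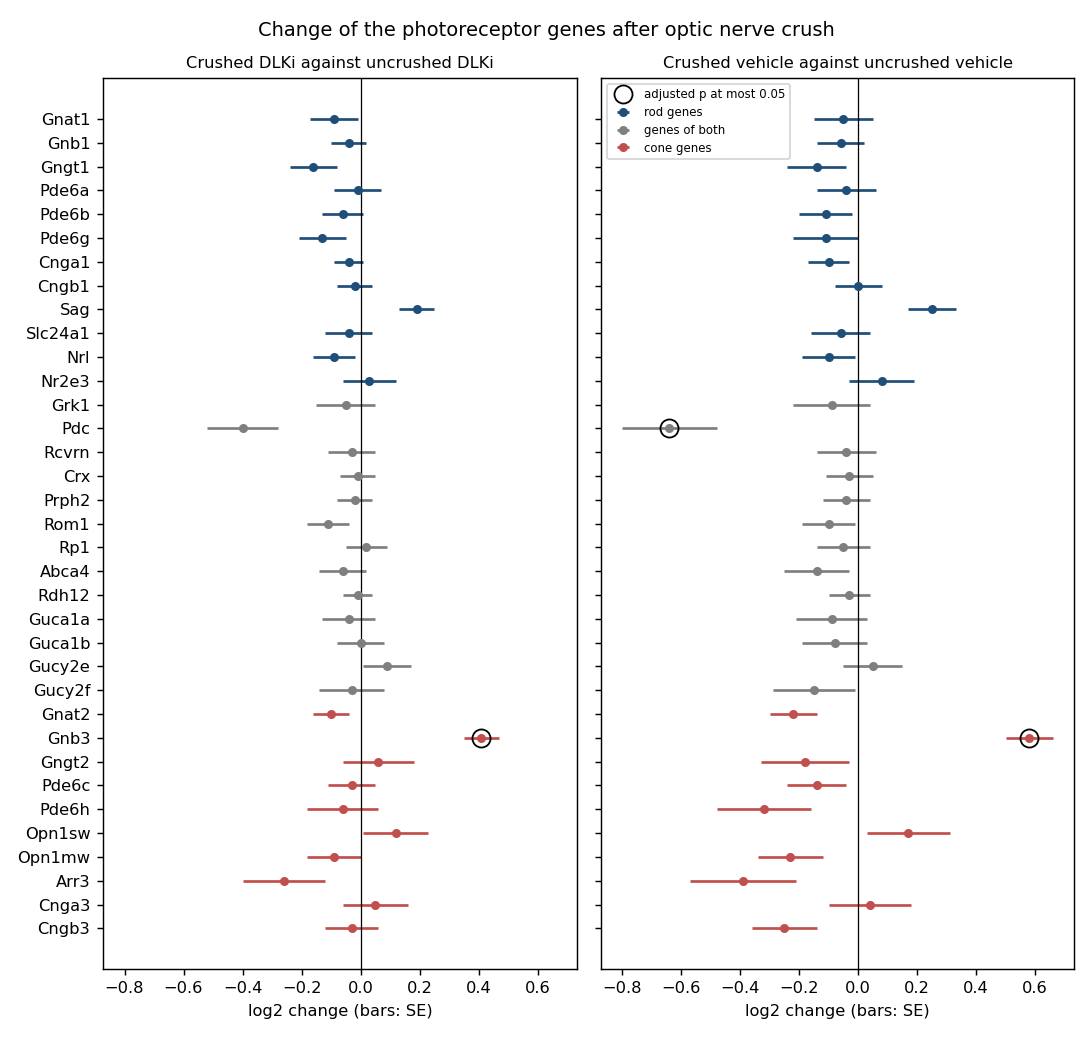
log2 change (horizontal axis, bars SE) of each of the 35 genes between crushed and uncrushed retinas, in DLKi mice (left) and vehicle mice (right), with rod genes in blue, genes of both in grey and cone genes in red. Black circles mark an adjusted p of at most 0.05. Gnb3 lies right of 0 in both panels (0.41 and 0.58), Pdc left of 0 in both (-0.40 and -0.64), and most others near 0.

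Gnb3 (GRCm38 chromosome 6, 124834240 to 124840275) rose after crush in both drugs. In DLKi mice it had 222, 217, 189, 192 and 197 nRPKM in crushed retinas, against 148, 144, 161, 154 and 161 nRPKM in uncrushed retinas. In vehicle mice it had 206, 234 and 219 nRPKM in crushed retinas, against 147, 151 and 143 nRPKM in uncrushed retinas. All 8 crushed libraries were above all 8 uncrushed libraries. The log2 change was 0.41 ± 0.06 (SE, adjusted p = 0.000358) in DLKi mice and 0.58 ± 0.08 (adjusted p = 0.000248) in vehicle mice. Averaged over both drugs, a comparison added after the data were seen, Gnb3 was 1.41-fold higher in crushed retinas (log2 0.49 ± 0.05, adjusted p = 2.93e-06). The change in DLKi mice minus that in vehicle mice was -0.17 ± 0.10 (95% interval -0.38 to 0.04, adjusted p = 0.9998). Gnb3 was the only member whose crushed and uncrushed libraries did not overlap, against 1.84% of all genes with crushed above uncrushed and 0.639% with crushed below.

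Gnb3 serves ON bipolar cells as well as cones, so the markers of those cells were set beside it. Of 12 ON bipolar markers 0 were called in either drug, with median log2 changes of -0.07 in DLKi mice and -0.03 in vehicle mice. Their summed level averaged 488 nRPKM in crushed and 518 nRPKM in uncrushed retinas of DLKi mice, and 433 nRPKM in crushed and 459 nRPKM in uncrushed retinas of vehicle mice. None of the other 9 cone genes was called higher after crush. Gnat2, the α subunit of the same cone transducin, had a log2 change of -0.10 ± 0.06 in DLKi mice and -0.22 ± 0.08 in vehicle mice, and Gngt2, its γ subunit, had 0.06 ± 0.12 and -0.18 ± 0.15, none of them called.

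Pdc (chromosome 1, 150319417 to 150333906) was lower after crush. In DLKi mice it had 932, 1234, 932, 1019 and 966 nRPKM in crushed retinas, against 1434, 1414, 1201, 1470 and 1187 nRPKM in uncrushed retinas. In vehicle mice it had 708, 1057 and 1106 nRPKM in crushed retinas, against 1715, 1254 and 1497 nRPKM in uncrushed retinas. Crushed DLKi replicate 2 was the 1 crushed library that reached into the uncrushed range. The log2 change was -0.40 ± 0.12 in DLKi mice, not called (adjusted p = 0.0727), and -0.64 ± 0.16 in vehicle mice (adjusted p = 0.0369). The change in DLKi mice was called in 6 of 23 alternatives, DESeq2 and limma voom among them. The call in vehicle mice was lost without crushed vehicle replicate 1, without uncrushed vehicle replicate 1 or 3, without both of the shallowest libraries and in the vehicle libraries alone, the adjusted p reaching 0.247 over the alternatives. Averaged over both drugs, Pdc fell by 0.52 ± 0.10 on the log2 scale (95% interval -0.73 to -0.31, adjusted p = 0.00208).

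Sag (chromosome 1, 87798143 to 87845158) rose slightly in the average over both drugs. In DLKi mice it had 2642, 2296, 2464, 2330 and 2371 nRPKM in crushed retinas, against 2105, 2168, 2226, 2152 and 1954 nRPKM in uncrushed retinas. In vehicle mice it had 2536, 2769 and 2612 nRPKM in crushed retinas, against 2362, 2067 and 2215 nRPKM in uncrushed retinas. Across drugs, crushed DLKi replicates 2 and 4 lay below uncrushed vehicle replicate 1. The log2 change was 0.19 ± 0.06 in DLKi mice (adjusted p = 0.103) and 0.25 ± 0.08 in vehicle mice (adjusted p = 0.152), neither of them called. DESeq2 and limma voom called both, the lowest adjusted p being 0.0120 in DLKi mice and 0.0139 in vehicle mice, while the other alternatives called neither. Averaged over both drugs it was 0.22 ± 0.05, a 1.17-fold rise (adjusted p = 0.00950). That average called 3 of the 35 genes, Gnb3 and Sag higher and Pdc lower, against 8.45% of all genes, 5.22% higher and 3.23% lower.

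**Figure D3:**
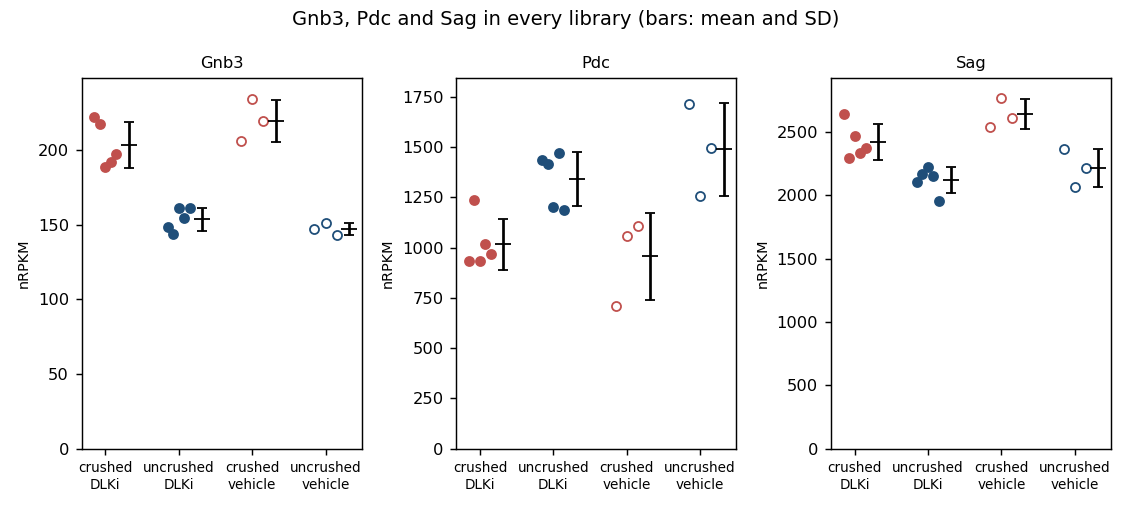
Level in nRPKM (vertical axis, from 0) of Gnb3, Pdc and Sag in each library by group, with mean and SD beside the points. Crushed libraries are red, uncrushed blue, DLKi filled and vehicle open. Gnb3 is above 188 nRPKM in all crushed and below 162 nRPKM in all uncrushed libraries.

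Pdc and Sag lie on the same chromosome and moved in opposite directions. Their promoters are shown for that reason, as the 250 bases before a RefSeq transcript start on GRCm38.p6, 5′ to 3′ on the strand of the gene. Capitals mark a match to TAATCC (the core bound by CRX and OTX2), written GGATTA where it lies on the other strand, or to TGCTGA (the core of the NRL element). Pdc is chr1:150319167-150319416 and Sag is chr1:87803430-87803679, both on the plus strand. The Pdc window ends at the outermost start of the gene. The Sag window lies inside the span of Sag given above, before a start further downstream, so the windows were not placed alike.
Pdc: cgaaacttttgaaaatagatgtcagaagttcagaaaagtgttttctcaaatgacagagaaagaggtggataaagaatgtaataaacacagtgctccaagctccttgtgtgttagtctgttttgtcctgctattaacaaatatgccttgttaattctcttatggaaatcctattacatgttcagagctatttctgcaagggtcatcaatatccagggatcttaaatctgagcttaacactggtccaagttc
Sag: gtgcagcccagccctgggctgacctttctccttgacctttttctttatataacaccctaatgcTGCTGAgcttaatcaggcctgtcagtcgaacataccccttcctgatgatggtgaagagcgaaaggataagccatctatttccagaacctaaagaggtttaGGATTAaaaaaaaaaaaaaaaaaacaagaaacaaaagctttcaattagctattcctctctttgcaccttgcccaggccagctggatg
The Sag window held TGCTGA 187 bases and GGATTA 87 bases before the start. The Pdc window held neither motif on either strand. Of the 25 members with a RefSeq promoter, 10 (40.0%) held TAATCC on either strand, against 6.38% of 27025 mouse promoters of that length. By set, TAATCC was in 4 of 9 rod promoters, 5 of 10 promoters of genes of both and 1 of 6 cone promoters, that of Gnat2. TGCTGA was in 4 of 25 members, those of Sag, Pde6b, Rdh12 and Opn1sw, against 15.8% of all promoters. CACGTG, the E-box of clock and bHLH factors, was in 0 of 25, against 6.05%. A match describes letters only and no binding was measured.

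Among the other rod genes no estimate after crush was called. Gnat1 had a log2 change of -0.09 ± 0.08 in DLKi mice and -0.05 ± 0.10 in vehicle mice. Gngt1 had -0.16 ± 0.08 and -0.14 ± 0.10, in the same order of drugs, and Pde6g had -0.13 ± 0.08 and -0.11 ± 0.11. The remaining 8 rod genes (Gnb1, Pde6a, Pde6b, Cnga1, Cngb1, Slc24a1, Nrl and Nr2e3) lay between -0.09 and 0.03 in DLKi mice and between -0.11 and 0.08 in vehicle mice. The rod median was -0.04 in DLKi mice and -0.06 in vehicle mice. Nrl, at -0.09 ± 0.07 and -0.10 ± 0.09, and Crx, at -0.01 ± 0.06 and -0.03 ± 0.08, are the transcription factors that drive much of the rod set.

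Among the cone genes other than Gnb3 most estimates in vehicle mice were below 0, and 0 of 9 were called. Their median log2 change was -0.22 in vehicle mice and -0.03 in DLKi mice. The median of all 10 cone genes in vehicle mice, -0.20, lay between -0.26 and -0.11 when single libraries were left out, the last value without uncrushed vehicle replicate 1. Arr3 had 66.2, 72.2 and 112 nRPKM in crushed vehicle retinas, against 138, 102 and 88.9 nRPKM in uncrushed vehicle retinas. Crushed vehicle replicate 3 lay inside the uncrushed range. The log2 change of Arr3 was -0.39 ± 0.18 in vehicle mice (adjusted p = 0.442) and, without that library, -0.66 (adjusted p = 0.0349, where the other alternatives ran up to 0.885). In DLKi mice Arr3 had 75.7, 72.5, 60.7, 85.5 and 82.4 nRPKM in crushed retinas, against 86.8, 93.5, 83.1, 91.3 and 98.2 nRPKM in uncrushed retinas, a log2 change of -0.26 ± 0.14. The groups overlapped there in crushed replicate 4 alone, which exceeded uncrushed replicate 3.

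Gnat2 had 50.2, 55.9 and 52.9 nRPKM in crushed vehicle retinas, against 68.6, 57.8 and 58.8 nRPKM in uncrushed vehicle retinas. Its log2 change there was -0.22 ± 0.08 (adjusted p = 0.238). Averaged over both drugs it was -0.16 ± 0.05, short of the threshold (adjusted p = 0.0660). Pde6h and Cngb3 had log2 changes of -0.32 ± 0.16 and -0.25 ± 0.11 in vehicle mice, and -0.06 ± 0.12 and -0.03 ± 0.09 in DLKi mice. The opsins differed in sign. Opn1sw had 0.12 ± 0.11 in DLKi mice and 0.17 ± 0.14 in vehicle mice, while Opn1mw had -0.09 ± 0.09 and -0.23 ± 0.11, none of them called.

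No member was called for a crush response that differed between the drugs. The change in DLKi mice minus that in vehicle mice passed in 0 of the 35 genes with edgeR, with DESeq2 and with limma voom, and in 0.0103% of all genes with edgeR. At an unadjusted p of at most 0.05 it passed in 0 members and 1.54% of all genes. The differences of the 10 cone genes had a median of 0.12 and were positive in 8. Those of the 13 genes of both had a median of 0.04 and were positive in 12. Those of the 12 rod genes had a median of 0 and were positive in 6. The genes of a set were measured in the same libraries, so these counts are not of independent values. The SD between replicates of the median log2 level was 0.117 in the cone set, 0.145 in the genes of both and 0.103 in the rod set. The median over all genes was -0.005. For 31 of the 35 genes the 95% interval of the difference lay within 1.5-fold, the exceptions being Pdc (0.24 ± 0.20), Pde6h, Gngt2 and Arr3.

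The ratio of 2 genes within a library does not depend on library scaling, and the ratios below were chosen after the values were seen. Gnb3 and Gnat2 had estimates of opposite sign after crush, as did Pdc and Sag. A separation of their ratios is therefore built in and is no further evidence. Gnb3 over Gnat2 ranged from 3.22 to 3.82 in crushed and 2.33 to 2.73 in uncrushed retinas of DLKi mice, and from 4.10 to 4.18 in crushed and 2.14 to 2.62 in uncrushed retinas of vehicle mice. Crushed and uncrushed libraries did not overlap in either drug. Pdc over Sag ranged from 0.353 to 0.537 in crushed and 0.539 to 0.683 in uncrushed retinas of DLKi mice, and from 0.279 to 0.423 in crushed and 0.607 to 0.726 in uncrushed retinas of vehicle mice. The summed rod genes over the summed cone genes without Gnb3 averaged 26.5 in crushed and 25.9 in uncrushed retinas of DLKi mice, and 27.9 in crushed and 24.8 in uncrushed retinas of vehicle mice. That ratio ranged from 23.3 to 29.5 over all libraries, and its groups overlapped.

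**Figure D4:**
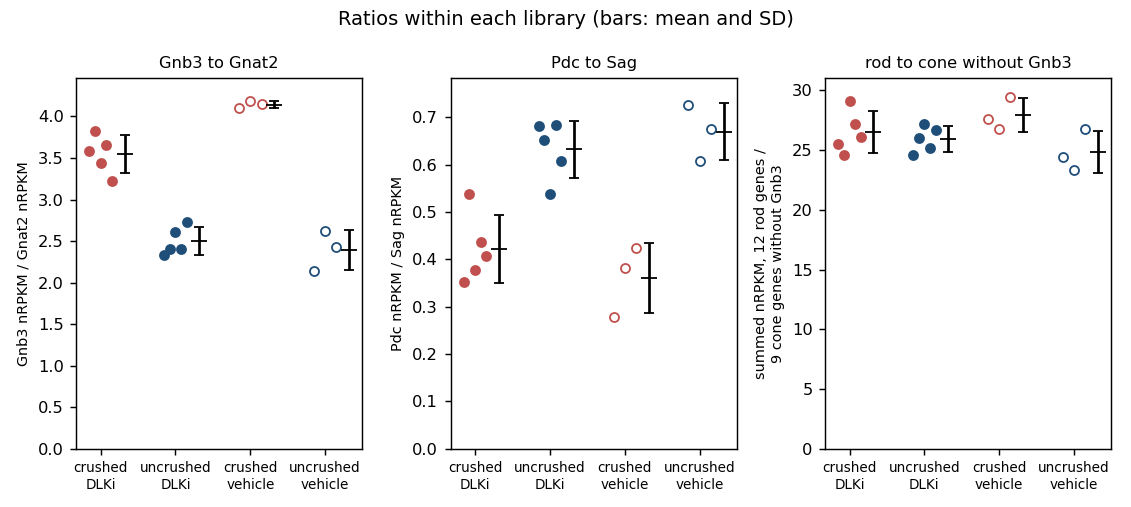
Ratios of nRPKM within each library (vertical axes, from 0), by group, with mean and SD beside the points. Crushed libraries are red, uncrushed blue, DLKi filled and vehicle open. Gnb3 over Gnat2 and Pdc over Sag, pairs chosen after their opposite changes were seen, separate crushed from uncrushed libraries. In DLKi mice Pdc over Sag does so narrowly (0.537 against 0.539). The ratio of rod to cone sums without Gnb3 overlaps.

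Several photoreceptor genes outside the 35 were called after crush. Of 32 listed, 2 were called higher and 2 lower in DLKi mice, against 5.33% of all genes in either direction. In vehicle mice 1 was called higher and 2 lower, against 2.63% of all genes. Impg2, a proteoglycan of the matrix around photoreceptors, had a log2 change of 0.54 ± 0.09 (adjusted p = 0.00110) in DLKi mice and 0.48 ± 0.12 (adjusted p = 0.0292) in vehicle mice. Samd7, a rod chromatin regulator, had 0.40 ± 0.08 (adjusted p = 0.00738) in DLKi mice and 0.39 ± 0.11 (adjusted p = 0.0687) in vehicle mice. Rxrg, a nuclear receptor gene, had a low level. It averaged 2.27 ± 0.202 nRPKM in crushed and 3.44 ± 0.278 nRPKM in uncrushed retinas of DLKi mice (SD). Its log2 change there was -0.60 ± 0.12 (adjusted p = 0.00341). In vehicle mice Rxrg averaged 1.87 ± 0.502 nRPKM in crushed and 3.28 ± 0.293 nRPKM in uncrushed retinas, a change of -0.80 ± 0.15 (adjusted p = 0.00551). Rorb, an orphan receptor of photoreceptors and other retinal neurons, had -0.44 ± 0.10 (adjusted p = 0.0109) and -0.56 ± 0.13 (adjusted p = 0.0234). Which cells the changes of Rxrg and Rorb came from was not tested.

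Some markers on the lists for other cell types were called after crush as well. Of 10 ganglion cell markers 8 were called lower in each drug, with median log2 changes of -0.70 in DLKi mice and -1.27 in vehicle mice. The 10 markers of the retinal pigment epithelium, which lies against the photoreceptors, were all negative after crush in both drugs, with 0 called and medians of -0.22 and -0.54. Their summed level ranged from 78.2 to 130 nRPKM in crushed and 46.8 to 206 nRPKM in uncrushed retinas of DLKi mice, and from 108 to 161 nRPKM in crushed and 71.8 to 374 nRPKM in uncrushed retinas of vehicle mice. The 10 lens markers were also all negative, 6 of them called in DLKi mice and 0 in vehicle mice. Their summed level varied widely between replicates. It ranged from 2.32 to 20.8 nRPKM in crushed and 12.4 to 511 nRPKM in uncrushed retinas of DLKi mice. In vehicle mice it ranged from 0.863 to 16.7 nRPKM in crushed and 1.15 to 217 nRPKM in uncrushed retinas. The groups overlapped in both drugs, and the source of the lens RNA was not tested. Of 9 Müller glia markers 1 was called in each drug, the intermediate filament gene Vim, which was higher by 0.75 ± 0.12 in DLKi mice (adjusted p = 0.000808) and 0.82 ± 0.16 in vehicle mice (adjusted p = 0.00643). On average over both drugs the Müller genes Glul and Rlbp1 were called lower, at -0.27 ± 0.06 and -0.19 ± 0.05. Isl1 was also called lower on that average, at -0.16 ± 0.05, as the only one of the 12 ON bipolar markers called. The part of these markers in the changes of Gnb3, Pdc and Sag was not tested.

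The inhibitor was compared with the vehicle in crushed and in uncrushed retinas separately, and 0 of the 35 genes were called in either. The background was 0.505% of all genes in crushed retinas and 0.629% in uncrushed retinas. At an unadjusted p of at most 0.05, 4 members passed in crushed retinas, against 13.7% of all genes, and 6 in uncrushed retinas, against 17.3%. With DESeq2 the adjusted p called 2 members in crushed retinas, Rom1 and Opn1mw, and 1 in uncrushed retinas. Averaged over crushed and uncrushed retinas, a comparison added after the data were seen, 4 of 35 were called. Rom1, Opn1mw and Gnb1 were higher and Gucy2e was lower, against 9.17% of all genes, 4.51% higher and 4.66% lower. Both eyes of a mouse may enter this average as separate samples, which would make its p-values too small.

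Rom1 (chromosome 19, 8927382 to 8929356) was higher with the inhibitor in both kinds of retina. It had 1625, 1712, 1488, 1461 and 1489 nRPKM in crushed DLKi retinas, against 1183, 1379 and 1315 nRPKM in crushed vehicle retinas. In uncrushed retinas it had 1635, 1593, 1861, 1776 and 1527 nRPKM with DLKi, against 1356, 1361 and 1438 nRPKM with vehicle. All 10 DLKi libraries were above all 6 vehicle libraries, which held for no other member, against 0.877% of all genes with DLKi above and 0.686% with DLKi below. The log2 change was 0.27 ± 0.08 in crushed (adjusted p = 0.171) and 0.28 ± 0.08 in uncrushed retinas (adjusted p = 0.127), and 0.27 ± 0.06 on average (adjusted p = 0.0109). Prph2, its partner in the disc rim, had an average of 0.11 ± 0.05 and was not called (adjusted p = 0.187).

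Opn1mw (chromosome X, 74127466 to 74150756) had 135, 147, 107, 122 and 124 nRPKM in crushed DLKi retinas, against 87.2, 99.2 and 105 nRPKM in crushed vehicle retinas. In uncrushed retinas it had 128, 143, 124, 157 and 125 nRPKM with DLKi, against 123, 106 and 114 nRPKM with vehicle. The lowest DLKi value was close to the highest vehicle value in both kinds of retina. These were 107 and 105 nRPKM in crushed retinas, and 124 and 123 nRPKM in uncrushed retinas. The log2 change was 0.38 ± 0.10 in crushed (adjusted p = 0.106) and 0.25 ± 0.10 in uncrushed retinas (adjusted p = 0.235), and 0.31 ± 0.07 on average (adjusted p = 0.0145). Opn1sw, the other cone opsin, averaged 0.02 between drugs and was not called.

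Gucy2e (chromosome 11, 69218117 to 69237279) had 77.3, 75.4, 76.5, 89.3 and 88.1 nRPKM in crushed DLKi retinas, against 101, 87.3 and 102 nRPKM in crushed vehicle retinas. In uncrushed retinas it had 69.6, 88.4, 68.8, 82.5 and 75.0 nRPKM with DLKi, against 98.7, 90.3 and 91.2 nRPKM with vehicle. The drugs overlapped in crushed retinas, through vehicle replicate 2. The log2 change was -0.25 ± 0.09 in crushed (adjusted p = 0.231) and -0.28 ± 0.09 in uncrushed retinas (adjusted p = 0.144), and -0.27 ± 0.06 on average (adjusted p = 0.0168). The call on the average was lost without crushed vehicle replicate 3 and without both of the shallowest vehicle libraries, with an adjusted p of up to 0.0952.

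Gnb1 (chromosome 4, 155491300 to 155559269) had 1394, 1347, 1458, 1373 and 1415 nRPKM in crushed DLKi retinas, against 1172, 1218 and 1291 nRPKM in crushed vehicle retinas. In uncrushed retinas it had 1432, 1494, 1472, 1537 and 1284 nRPKM with DLKi, against 1359, 1186 and 1308 nRPKM with vehicle. In uncrushed retinas DLKi replicate 5 fell among the vehicle libraries. Its log2 difference between drugs was 0.19 ± 0.08 in crushed (adjusted p = 0.280) and 0.17 ± 0.08 in uncrushed retinas (adjusted p = 0.268), and 0.18 ± 0.05 on average (adjusted p = 0.0457). The call on the average was kept in 6 of 22 alternatives, the adjusted p reaching 0.106. Nr2e3 was just outside the threshold, at 0.23 ± 0.07 (adjusted p = 0.0597).

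**Figure D5:**
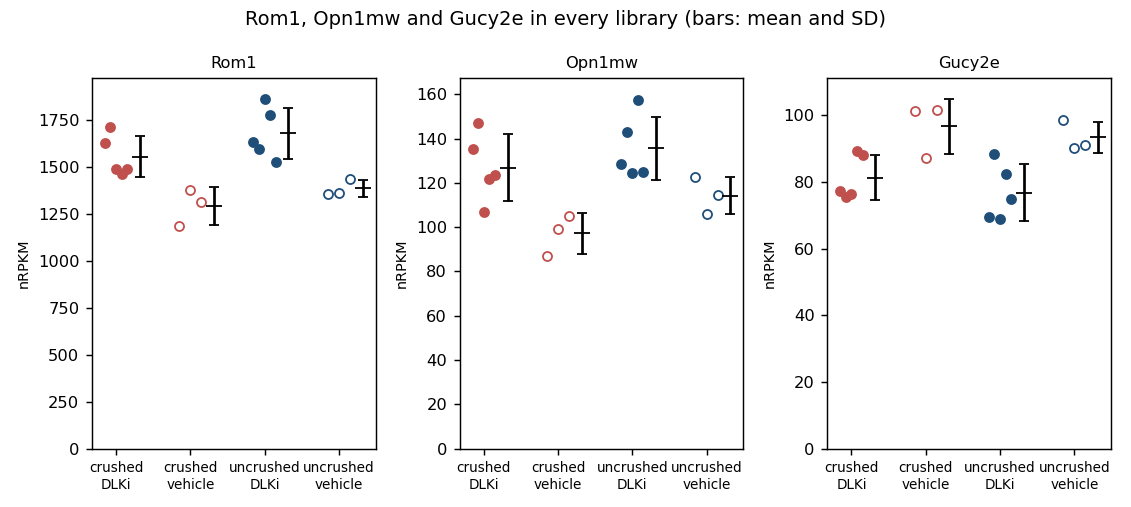
Level in nRPKM (vertical axis, from 0) of Rom1, Opn1mw and Gucy2e in each library, with DLKi left of vehicle in crushed and then in uncrushed retinas, and mean and SD beside the points. Crushed libraries are red, uncrushed blue, DLKi filled and vehicle open. Rom1 is at 1461 nRPKM or more in all DLKi libraries and at 1438 nRPKM or less in all vehicle libraries.

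The promoters of Rom1 and Gucy2e are shown as those of a called member that rose and one that fell with the inhibitor. They are the 250 bases before a RefSeq start on GRCm38.p6, chr19:8929357-8929606 and chr11:69237023-69237272, both genes on the minus strand and written 5′ to 3′ along the gene. The Rom1 window ends at the outermost start of the gene. The Gucy2e window lies inside the span of Gucy2e given above, before a start further downstream, so the windows were not placed alike.
Rom1: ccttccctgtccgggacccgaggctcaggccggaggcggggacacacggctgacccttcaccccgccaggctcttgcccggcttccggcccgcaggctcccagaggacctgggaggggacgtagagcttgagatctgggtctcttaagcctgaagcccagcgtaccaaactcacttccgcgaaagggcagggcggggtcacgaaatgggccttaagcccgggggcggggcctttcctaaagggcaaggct
Gucy2e: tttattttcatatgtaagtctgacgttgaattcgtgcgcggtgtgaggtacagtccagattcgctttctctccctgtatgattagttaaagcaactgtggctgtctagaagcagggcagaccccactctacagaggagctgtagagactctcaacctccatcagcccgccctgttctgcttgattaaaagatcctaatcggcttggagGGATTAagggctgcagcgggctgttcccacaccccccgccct
The Gucy2e window held GGATTA, the other strand of TAATCC, 42 bases before the start, and the Rom1 window held neither TAATCC nor TGCTGA on either strand.

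The medians of the photoreceptor sets between the drugs lay from -0.11 to 0.14. On average over both kinds of retina the median log2 change was 0 for the 12 rod genes, -0.04 for the 13 genes of both and 0.06 for the 10 cone genes, against 0.008 for all genes. In crushed retinas the cone median was 0.14, the rod median 0.02 and that of the genes of both 0.01. In uncrushed retinas they were -0.01, 0 and -0.11. The value of -0.11 lay between -0.16 and 0 when single libraries were left out. These extremes came without uncrushed vehicle replicate 2 and without uncrushed vehicle replicate 1. Gnb3 and Pdc, the members called after crush, had -0.02 and -0.03 on average between the drugs. Of the 32 other photoreceptor genes, 0 were called in crushed or uncrushed retinas and 2 higher and 4 lower on average, against 9.17% of all genes. All 10 ganglion cell markers were positive on average (median 0.35), with 5 called higher, and 3 of them, Isl2, Pou4f1 and Pou4f2, were called higher in crushed retinas. Their summed level ranged from 286 to 347 nRPKM in crushed DLKi retinas, against 225 to 315 nRPKM in crushed vehicle retinas, and from 437 to 586 nRPKM in uncrushed DLKi retinas, against 372 to 491 nRPKM in uncrushed vehicle retinas. The 10 pigment epithelium markers were all negative on average (median -0.50, 0 called), and 3 of 12 ON bipolar markers, Isl1, Pcp2 and Gng13, were called higher. The part of these markers in the differences of Rom1, Opn1mw, Gnb1 and Gucy2e was not tested.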

How the data were processed

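Poly(A) RNA from 16 mouse retinas was sequenced as 50-base single reads with a kit that does not mark strand, per the labels' protocols. The authors' deposited counts are whole numbers of uniquely aligned reads per Entrez gene, per the file headers. Reads were aligned with GSNAP to GRCm38, per the submitters' processing notes. The authors' deposited nRPKM values are RPKM scaled by a size factor per library, per the file headers, and were used for levels only. The making of the size factor is not described in these sources.

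Of 36528 identifiers, 31049 matched a RefSeq symbol, and the 5479 without one held 1.10% to 1.22% of counts. The test on counts was edgeR 4.0.16 under R 4.3.3 (TMM scaling, filterByExpr, glmQLFit and glmQLFTest, 4 group means over all 16 libraries, 12 residual degrees of freedom), which left 19391 genes. Values with ± in nRPKM are SD and with ± in log2 are SE. Intervals are 95%. The fit was tested on simulated data. Alternatives used RLE scaling, TMM without the members and other abundant genes, no filter, DESeq2 1.42.0, limma 3.58.1 voom with quality weights, fewer libraries and each library left out. Averages over drugs or eyes were added after the data were seen. Replicates differed by more than counting noise (chi-square per degree of freedom 6.73 or more). Depth was 22.4 to 44.7 M counts per library.

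The members and gene lists were chosen with earlier results of these data known. Every member is named, and of the other lists up to 4 called genes in a comparison, or counts only. Members were described with values in each library where an adjusted p was at most 0.05 in any comparison of the main fit. Arr3 and Gnat2 were chosen for description after their values were seen. Motifs were searched on both strands of RefSeq promoters, some of which lie inside the gene span.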

Additional observations from a re-analysis of the deposited data

How the results depend on the processing

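Of the members named with a call, Gnb3 after crush (in each drug and on average), Pdc and Sag after crush on average, and Rom1 and Opn1mw between drugs on average were called in every alternative run. The number of the 35 genes called moved as follows. After crush in DLKi mice it was 3 with DESeq2 and 3 with voom, 2 with the 10 DLKi libraries alone, 2 without the shallowest vehicle libraries, and 1 to 2 with single libraries left out, against 1; it was 2 without crushed DLKi replicate 2 or crushed vehicle replicate 1. After crush in vehicle mice it was 3 with DESeq2 and 3 with voom, 1 with the 6 vehicle libraries alone, 1 without the shallowest, and 1 to 3 with single libraries left out, against 2; it was 1 without any of uncrushed vehicle replicates 1 and 3 and crushed vehicle replicate 1. On average over drugs it was 5 with DESeq2, 4 with voom and 3 to 5 with single libraries left out, against 3, the highest without crushed vehicle replicate 3. Between drugs it was 2 in crushed retinas and 1 in uncrushed retinas with DESeq2 and 4 in uncrushed retinas with voom, against 0, and on average 5 with DESeq2, 7 with voom and 2 to 4 with single libraries left out, against 4, the lowest without crushed vehicle replicate 3. The cause was not tested. No direction of a called value reversed. Sign changes of values with an unadjusted p above 0.05 in both fits were not counted as reversals.

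Calls over all genes also depended on the settings. After crush in vehicle mice 510 genes were called, against 281 with the vehicle libraries alone and 276 without crushed vehicle replicate 1. Between drugs on average 1778 were called, against 2710 with voom, 607 without the shallowest vehicle libraries and 678 without crushed vehicle replicate 3. In crushed retinas 98 were called between drugs, against 411 with DESeq2, 45 with those libraries alone and 22 without crushed vehicle replicate 1. In uncrushed retinas it was 122, against 1129 with voom, 623 with DESeq2, 3 with those libraries alone and 17 without uncrushed vehicle replicate 2. For the difference between the crush responses it was 2, against 5 with DESeq2 and 1 without the shallowest vehicle libraries. No paired analysis was possible because the labels give no replicate number or animal that crushed and uncrushed retinas share. The titles number the libraries in sequence with crushed and uncrushed alternating, but the labels do not say that neighbours are the eyes of 1 mouse, so neighbours were not paired and any pairing would change the p-values. The median SE after crush was 0.08 on the log2 scale in DLKi mice and 0.10 in vehicle mice, which have 3 libraries per group.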

Other observations

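The change between drugs on average differed among the members with the length of the longest annotated transcript in GENCODE M21. That length need not be the one behind the nRPKM values or that of the transcript measured. Of the 17 members shorter than 2919 bases, the median length of the 35, 11 had a positive log2 change (median 0.06), and of the 17 longer ones 5 did (median -0.03). Over all genes with a length (16813 of 19391) the median was 0.023 for the 4206 genes of up to 1986 bases and -0.004 for the 4201 genes of at least 4658 bases. This split was chosen after the values were seen and its source was not tested.

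The ratio of Opn1sw to Opn1mw ranged from 0.709 to 1.12 in crushed and 0.671 to 0.904 in uncrushed retinas of DLKi mice, and from 0.803 to 1.41 in crushed and 0.743 to 0.983 in uncrushed retinas of vehicle mice. The groups overlapped in both drugs, and crushed vehicle replicates 1 and 2 held the highest ratios, 1.41 and 1.36.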
